A study of Mus musculus with 11 samples.

Results

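Wnt/beta-catenin signalling in brain endothelium was followed through 10 genes, the members: the receptor components Fzd4, Tspan12 and Adgra2, the transcription factor Lef1, the feedback inhibitors Axin2, Nkd1, Apcdd1 and Notum, and the barrier transcription factors Foxq1 and Foxf2. They were chosen by name for their place in the pathway, with earlier results of these data known, and were 10 of the 45802 genes listed. All 10 passed the filter on low values, which asked for 1 FPKM or more in 2 or more libraries, as did 15604 genes in all. FPKM counts the fragments per kilobase of a transcript relative to all those mapped in its library, so it is a level per length and can be compared between genes.

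In the vessels of the brain, Wnt7a and Wnt7b from neural cells act on endothelial cells through a complex of Adgra2 (also called Gpr124) and Reck, which presents them to frizzled receptors such as Fzd4 and the co-receptors Lrp5 and Lrp6. Norrin, encoded by Ndp, is another ligand of Fzd4 and uses the tetraspanin Tspan12 as a co-activator. Both routes stabilise beta-catenin, which joins LEF and TCF factors in the nucleus and turns on inhibitors of the pathway as well as genes of the blood-brain barrier.

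The libraries came from adult C57BL/6 mice. The 4 groups were GL261 tumour of Eltd1-/- mice (knockout tumour, n = 2), GL261 tumour of wild type mice (wild type tumour, n = 3), healthy brain of Eltd1-/- mice (knockout brain, n = 3) and healthy brain of wild type mice (wild type brain, n = 3). GL261 is a mouse glioma cell line, implanted in the brain, and Eltd1, now named Adgrl4, encodes an endothelial receptor of the adhesion GPCR family. Mice of both genotypes carried the ribosomal protein L10a fused to eGFP under the VE-cadherin promoter, and RNA was taken by pulling down the tagged ribosomes (translating ribosome affinity purification), so the knockouts were a cross of the Eltd1-/- line with the tagged line and the controls carried the tag too.

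The knockout is of the whole animal as far as the labels say, while the implanted GL261 cells were of 1 line in both genotypes. Adgrl4 averaged 8.66 ± 4.01 FPKM in knockout tumours (SD, n = 2) and 88.3 ± 90.6 FPKM in wild type tumours (SD, n = 3), which is 9.81% of the wild type mean. In brain it averaged 22.5 ± 1.03 FPKM in knockouts and 134 ± 45.0 FPKM in wild types (SD, n = 3 each), or 16.8%. Within a tissue no knockout library reached a wild type one, so the targeted gene matched the label of every library. Endothelial identity was also present everywhere: the 12 endothelial markers, Cdh5 and Pecam1 among them, summed to between 450.0 and 600.4 FPKM in knockout tumours, 205 and 660.3 FPKM in wild type tumours, 991 and 1412 FPKM in knockout brains, and 840.4 and 1027 FPKM in wild type brains. RNA of other cells was in the libraries too, since the 8 neuronal markers summed to between 411 and 1050 FPKM in knockout tumours, 93.1 and 2839 FPKM in wild type tumours, 4318 and 5635 FPKM in knockout brains, and 4941 and 6109 FPKM in wild type brains. Wild type tumour replicate 3 held the 2839. Wild type tumour replicate 2 listed 42.7% of the tested genes at 0, against 7.79% to 25.7% in the other libraries, and 3 of the members were at 0 there. Of the 13 mitochondrial mRNAs, 4 were listed at 0 in every library. Whether an exact 0 in these files is a low level or a failed estimate was not tested.

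On the deposited scale, limma called 3 of the 10 Wnt members lower in tumour than in brain in knockout mice, where 2.29% of all tested genes were called lower. It called 7 lower in wild type mice (11.7% of genes) and 9 with the genotypes averaged (17.6% of genes). All 10 had a negative tumour minus brain difference on the log2(FPKM + 1) scale in both genotypes, with a median of -1.87 in knockout mice and -1.92 in wild type mice, against -0.18 in knockout and -0.26 in wild type over all tested genes. With the mean level of the 12 endothelial markers as the scale, only Nkd1 was lower by the test in both genotypes, and its wild type call was lost without wild type tumour replicate 2. No member passed the test between genotypes, in tumour or in brain.

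Markers of other cell types differed between the tissues beside the members. With the genotypes averaged, limma called 8 of 8 neuronal markers lower in tumour (median -3.38), 5 of 6 oligodendrocyte markers lower (median -1.94), 3 of 6 astrocyte markers lower and 1 higher (median -1.09), and 6 of 8 microglia and macrophage markers higher (median 2.01). With the endothelial markers as the scale, 35.2% of all genes were called higher and 2.35% lower, with a median of 0.90. There 5 of 8 neuronal markers were lower (median -2.22). Of the 6 oligodendrocyte markers, 0 were lower and 1 higher (median -0.79). On the same scale 1 astrocyte marker was called in each direction (median 0.07), and 8 of 8 microglia and macrophage markers were higher (median 3.17). The oligodendrocyte markers summed to between 359.9 and 415 FPKM in knockout tumours, 279.6 and 817 FPKM in wild type tumours, 755 and 1006 FPKM in knockout brains, and 942 and 1014 FPKM in wild type brains. The astrocyte markers summed to between 213 and 296 FPKM in knockout tumours, 145 and 389.6 FPKM in wild type tumours, 477 and 657 FPKM in knockout brains, and 483 and 1120 FPKM in wild type brains. The microglia and macrophage markers summed to between 243 and 258 FPKM in knockout tumours, 106 and 179 FPKM in wild type tumours, 31.8 and 39.8 FPKM in knockout brains, and 31.8 and 60.3 FPKM in wild type brains. The part of these cells in the members' differences was not tested.

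**Figure D1:**
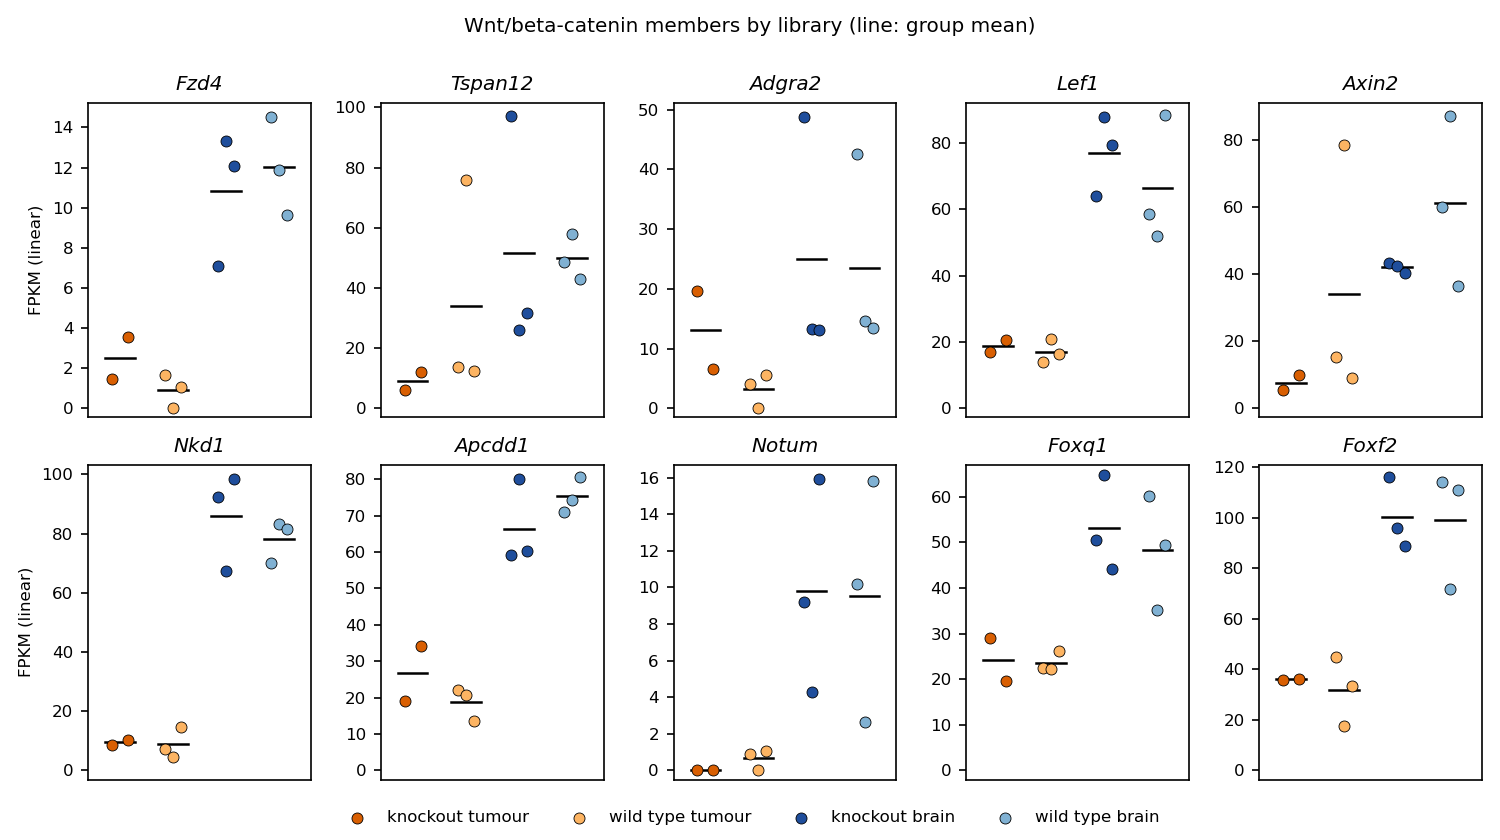
FPKM (linear axis from 0) of each of the 10 members in the 11 libraries, 1 panel per gene, with knockout tumour, wild type tumour, knockout brain and wild type brain from left to right and a line at each group mean. Lef1, Nkd1, Apcdd1, Notum, Fzd4, Foxq1 and Foxf2 have every tumour point below every brain point, while Axin2 and Tspan12 have 1 high wild type tumour point, replicate 2, at 78.5 and 75.8 FPKM.

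Among the receptor components, Fzd4, the frizzled receptor for Norrin and part of the Wnt7 receptor complex, gave 1.47 and 3.54 FPKM in knockout tumours, 1.67, 0 and 1.08 FPKM in wild type tumours, 7.09, 13.3 and 12.1 FPKM in knockout brains, and 14.5, 11.9 and 9.61 FPKM in wild type brains. The highest tumour library lay below the lowest brain library, and the receptor was the least abundant member in brain after Notum per length of transcript. Its tumour minus brain difference was -1.78 ± 0.67 (log2, SE) in knockout mice, with an adjusted p of 0.132 by limma, and -2.86 ± 0.60 in wild type mice, with an adjusted p of 0.0091. Tspan12, the Norrin co-activator, gave 6.09 and 12 FPKM in knockout tumours, 13.7, 75.8 and 12.4 FPKM in wild type tumours, 97, 25.9 and 31.8 FPKM in knockout brains, and 48.6, 58.1 and 43.1 FPKM in wild type brains. Both knockout tumours and 2 of the 3 wild type tumours lay below every brain library, but wild type tumour replicate 2 lay above 5 of the 6 brain libraries. Neither genotype passed the test for Tspan12 (-2.20 ± 0.77 in knockout, adjusted p = 0.106 by limma, and -1.03 ± 0.69 in wild type, adjusted p = 0.32). Without wild type tumour replicate 2 the knockout difference passed at 0.0287 and the wild type one, at -1.85, passed at 0.0469.

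Adgra2, the adhesion receptor that works with Reck to make endothelial cells responsive to Wnt7, gave 19.6 and 6.65 FPKM in knockout tumours, 4.1, 0 and 5.5 FPKM in wild type tumours, 48.7, 13.3 and 13.1 FPKM in knockout brains, and 42.6, 14.6 and 13.5 FPKM in wild type brains. Within knockout the tissues overlapped, since knockout tumour replicate 1 was above 2 of the 3 knockout brains, and within wild type they did not. Replicate 1 of each brain group stood high, and the other brain libraries lay between 13.1 and 14.6 FPKM. The difference was -0.78 ± 0.94 in knockout mice, with an adjusted p of 0.661 by limma, and -2.74 ± 0.84 in wild type mice, with an adjusted p of 0.041. The wild type call for Adgra2 was lost in 9 of the 11 fits that left out 1 library, with adjusted p-values of 0.051 to 0.13, among them the fit without wild type tumour replicate 2, where it is listed at 0 (-1.90, adjusted p = 0.108). It was also lost in 6 of 13 other settings.

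Lef1, the nuclear partner of beta-catenin that is itself a target of the pathway, gave 17.1 and 20.6 FPKM in knockout tumours, 14, 21 and 16.3 FPKM in wild type tumours, 64.1, 87.9 and 79.4 FPKM in knockout brains, and 58.7, 52 and 88.4 FPKM in wild type brains. The tumour libraries spanned 14 to 21 FPKM and the brain libraries 52 to 88.4 FPKM, with no overlap in either genotype. The tumour mean was 24.5% of the brain mean in knockouts and 25.8% in wild types. Limma gave -1.97 ± 0.39 in knockout (adjusted p = 0.0116) and -1.87 ± 0.35 in wild type (adjusted p = 0.00493). The knockout difference was -1.84 without knockout tumour replicate 1 and -2.10 without replicate 2, fits that leave 1 library in that group. With the 12 endothelial markers as the scale Lef1 passed in neither genotype. There it was at -1.02 ± 0.53 in knockout (limma adjusted p = 0.251) and -0.51 ± 0.48 in wild type (limma adjusted p = 0.435).

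Since most members were called lower in tumour with the genotypes averaged, the sequences around their starts were searched for letters of the kind that LEF and TCF factors bind. The words searched were CTTTGAA, its variant CTTTGAT, the related CTTTGTA and its variant CTTTGTT, on both strands. They differ from one another, so a position on a strand holds at most 1 of them. The RefSeq table of promoters (GRCm38.p6, 250 bases before to 50 after each start) held 6 of the 10 members, in 9 windows. For Nkd1, Axin2 and Tspan12 the window lies within the gene, and the outermost RefSeq start was not searched. A match was found in 1 window, at a start within Lef1 (chr3:131156044-131156343, plus strand), where CTTTGTA lies on the minus strand from -141 to -147, counted from the start. Over all 32851 windows of that table, 16.9% held a match. The window at the first Lef1 start (chr3:131110047-131110346, plus strand) and the Nkd1 window (chr8:88527383-88527682, plus strand, within the gene) held none. These 3 are shown because Lef1 and Nkd1 are the members whose lower level passed the test in both genotypes with values above 0 in every library, and capitals mark the match.
Lef1, start within the gene: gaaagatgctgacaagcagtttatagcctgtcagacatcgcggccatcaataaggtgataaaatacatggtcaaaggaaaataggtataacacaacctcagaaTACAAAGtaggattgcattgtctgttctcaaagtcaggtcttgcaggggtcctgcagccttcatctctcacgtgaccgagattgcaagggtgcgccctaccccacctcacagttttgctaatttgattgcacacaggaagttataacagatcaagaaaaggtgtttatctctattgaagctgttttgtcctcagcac
Lef1, first start: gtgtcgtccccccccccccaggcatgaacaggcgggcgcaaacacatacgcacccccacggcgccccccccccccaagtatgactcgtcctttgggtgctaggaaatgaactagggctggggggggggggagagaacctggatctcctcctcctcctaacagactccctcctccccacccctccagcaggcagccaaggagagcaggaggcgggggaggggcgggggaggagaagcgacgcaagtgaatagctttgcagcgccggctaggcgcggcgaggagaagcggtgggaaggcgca
Nkd1: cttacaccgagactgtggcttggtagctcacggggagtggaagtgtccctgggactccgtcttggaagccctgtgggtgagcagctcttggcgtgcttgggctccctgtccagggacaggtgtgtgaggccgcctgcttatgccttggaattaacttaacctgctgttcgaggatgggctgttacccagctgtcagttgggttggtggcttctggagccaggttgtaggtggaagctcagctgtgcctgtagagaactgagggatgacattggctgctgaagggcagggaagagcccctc

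A match describes the letters of a window and is neither a site nor a cause of a level, and no match says only that these letters are not in it.

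The feedback inhibitors are made in response to the signal they dampen and serve as readouts of it. Nkd1, which binds dishevelled proteins, gave 8.56 and 10.4 FPKM in knockout tumours, 7.1, 4.55 and 14.7 FPKM in wild type tumours, 92.3, 67.4 and 98.5 FPKM in knockout brains, and 70, 83.2 and 81.6 FPKM in wild type brains. Its highest tumour value was 14.7 FPKM and its lowest brain value 67.4 FPKM, and tumours held 11% of the brain mean in knockouts and 11.2% in wild types. This was the member with the smallest p in both genotypes: -3.04 ± 0.47 in knockout (limma, adjusted p = 0.00331) and -3.15 ± 0.42 in wild type (limma, adjusted p = 0.000812).

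Apcdd1, a membrane inhibitor that binds Wnt proteins and Lrp5, gave 19.1 and 34.3 FPKM in knockout tumours, 22, 20.7 and 13.6 FPKM in wild type tumours, 59.1, 80 and 60.3 FPKM in knockout brains, and 70.9, 74.4 and 80.6 FPKM in wild type brains. The tissues did not overlap. The difference missed the threshold in knockout (-1.33 ± 0.39, limma adjusted p = 0.0633) and passed the test in wild type (-1.98 ± 0.35, limma adjusted p = 0.00409).

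Notum, a secreted enzyme that removes the lipid from Wnt proteins, was listed at 0 in both knockout tumours and gave 0.883, 0 and 1.08 FPKM in wild type tumours, 9.18, 4.29 and 15.9 FPKM in knockout brains, and 10.2, 2.63 and 15.8 FPKM in wild type brains. No tumour library reached the lowest brain library, although replicate 2 of each brain group, at 4.29 FPKM in knockout and 2.63 FPKM in wild type, was the lowest of its group. Notum passed the limma test in knockout (adjusted p = 0.0322) and in wild type (-2.48 ± 0.72, adjusted p = 0.0335). The size of the knockout difference depends on the pseudocount because one side is at 0. The knockout call was lost in 4 of the 11 fits that left out 1 library, with adjusted p-values of 0.0882 to 0.227, and the wild type call in 6 of the 11, with adjusted p-values of 0.0529 to 0.104.

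Axin2, a scaffold of the beta-catenin destruction complex and a general target of the pathway, gave 5.37 and 10 FPKM in knockout tumours, 15.3, 78.5 and 8.96 FPKM in wild type tumours, 43.5, 42.4 and 40.3 FPKM in knockout brains, and 60, 87.1 and 36.4 FPKM in wild type brains. Both knockout tumours were at or below 10 FPKM and all knockout brains at or above 40.3 FPKM, whereas wild type tumour replicate 2 reached the level of the wild type brains. The difference did not pass the limma test in knockout (-2.36 ± 0.74, adjusted p = 0.0793) or in wild type (-1.32 ± 0.67, adjusted p = 0.184). Without wild type tumour replicate 2, Axin2 passed in both, at -2.36 in knockout (adjusted p = 0.00993) and -2.20 in wild type (adjusted p = 0.0119). Sox17, Slc38a5 and Ocln, genes of the barrier list described further on, were high in that library as well, at 139.6, 118 and 118 FPKM, against at most 21, 23.7 and 13.9 FPKM in the other 4 tumour libraries; Slc38a5 and Ocln were chosen after their values were seen. Whether the high zero count of this library has a part in these levels was not tested.

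The forkhead factors act downstream in the brain endothelium, where Foxf2 is also needed in pericytes. Foxq1 gave 29 and 19.6 FPKM in knockout tumours, 22.4, 22.3 and 26.1 FPKM in wild type tumours, 50.5, 64.7 and 44.1 FPKM in knockout brains, and 60.2, 35.2 and 49.3 FPKM in wild type brains. On the log2(FPKM + 1) scale it had the smallest difference between tissues of the members in wild type, but still no overlap. Its tumours were at 45.7% of the brain mean in knockouts and 49% in wild types. By that percentage Axin2 (56%) and Tspan12 (68.1%) were nearer to brain in wild type. Foxq1 passed in neither genotype on its own (-1.10 ± 0.39 in knockout, limma adjusted p = 0.111, and -0.97 ± 0.35 in wild type, limma adjusted p = 0.0734). Foxf2 gave 35.9 and 36.3 FPKM in knockout tumours, 44.9, 17.4 and 33.5 FPKM in wild type tumours, 116, 95.8 and 88.8 FPKM in knockout brains, and 114, 71.8 and 111 FPKM in wild type brains. It was the most abundant member per length of transcript in all 4 groups by its mean, apart from Axin2 and Tspan12 in wild type tumour, whose means rest on replicate 2. The tissues did not overlap, and the difference was -1.44 ± 0.42 in knockout (limma adjusted p = 0.0617) and -1.67 ± 0.38 in wild type (limma adjusted p = 0.012). The 8 mural cell markers, pericyte genes included, summed to between 18.9 and 27.4 FPKM in knockout tumours, 8.68 and 27.8 FPKM in wild type tumours, 11.7 and 26.1 FPKM in knockout brains, and 3.8 and 20.4 FPKM in wild type brains. Limma called 0 of the 7 tested mural markers between tissues on average (median 0.31), where 1 had an unadjusted p under 0.05. With the endothelial markers as the scale it called 5 of the 7 higher in tumour (median 1.46). That scale raises every gene's tumour minus brain difference by the same amount, and 35.2% of all genes were called higher on it (median 0.90). Genes near 0 FPKM are raised too, and Kcnj8, Abcc9 and Des stayed at or below 2.23 FPKM.

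Counted over the members, 3 of 10 were lower in knockout tumour than in knockout brain (Lef1, Nkd1 and Notum), where 2.29% of all tested genes were called lower. In wild type, 7 of 10 were lower (Fzd4, Adgra2, Lef1, Nkd1, Apcdd1, Notum and Foxf2), where 11.7% of all tested genes were called lower. No member was higher, where 4.79% of genes were called higher in knockout and 7.7% in wild type. With the genotypes averaged, 9 of 10 were lower, all but Adgra2 (-1.76 ± 0.63, limma adjusted p = 0.0532), against 17.6% of all tested genes called lower and 12.6% called higher, and the median difference was -1.80 for the members and -0.25 for all genes. Every tumour library lay below every brain library in 7 of 10 members, as in 12.3% of all tested genes. Within knockout this held for 9 of 10 members (28.6% of genes) and within wild type for 8 of 10 (19.8%). Among the averaged calls, that of Tspan12 was lost in 8 of the 11 fits that left out 1 library. The knockout count moved to 0 without knockout tumour replicate 1, to 1 without replicate 2, and to 7 without wild type tumour replicate 2. The test of the difference between the genotypes' tissue effects passed in no member (1 gene in all was called, 0.00641%, and 496 genes, none of them a member, had an unadjusted p under 0.05): the knockout effect minus the wild type effect ran from -1.17 ± 1.03 for Tspan12 to 1.96 ± 1.25 for Adgra2, with adjusted p-values of 1 by limma.

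As a mean of standardised log2 values over the 10 members, the tumour libraries lay between -0.94 and -0.79 in knockouts and between -0.93 and -0.85 in wild types, and the brain libraries between 0.66 and 0.86 in knockouts and between 0.56 and 0.91 in wild types. The spread of this mean within a tissue was small beside the gap. It does not show the spread of single members: in wild type tumour replicate 2, Axin2 and Tspan12 were high and 3 members were at 0. Members differed in how closely they followed the mean of the other 9 over the 11 libraries: Pearson's r was 0.957 for Nkd1, 0.949 for Lef1 and 0.926 for Apcdd1, and 0.565 for Tspan12, 0.591 for Axin2 and 0.621 for Adgra2. The libraries fall into clusters by tissue, so these values mostly describe the tissue gap. After each group's mean was taken out, r lay between -0.68 for Axin2 and 0.47 for Foxf2, with 7 of the 10 below 0.

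**Figure D2:**
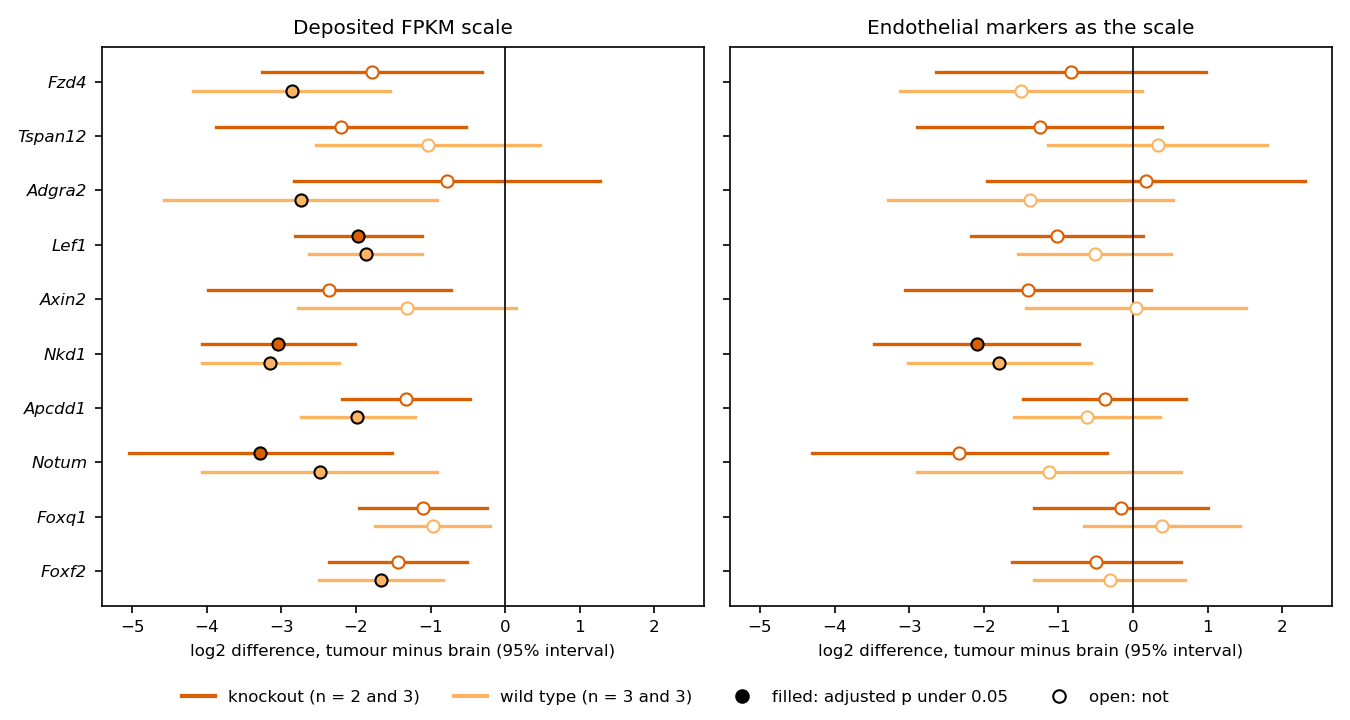
Tumour minus brain difference in log2(FPKM + 1) with 95% intervals for each member, knockout above wild type, on the deposited FPKM scale (left) and with the 12 endothelial markers as the scale (right). Filled points have an adjusted p under 0.05. On the left all 20 points are negative and 10 are filled. On the right Nkd1 is filled in both genotypes, at -2.09 in knockout and -1.79 in wild type, and no other point is.

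Of the 12 endothelial markers, limma called 0 lower in knockout tumour, where 4 had an unadjusted p under 0.05 and 2.29% of all genes were called lower. It called 4 lower in wild type tumour (11.7% of genes) and 6 with the genotypes averaged (17.6% of genes), with a median of -1.16. In a bulk pull-down, fewer endothelial cells and less of these RNAs per endothelial cell cannot be told apart. When the mean log2 value of the 12 markers was subtracted in each library, the median difference of all genes moved to 0.77 in knockout and 1.09 in wild type. On that scale 1 of 10 members was lower in each genotype (Nkd1, at -2.09 ± 0.64, adjusted p = 0.0467 by limma in knockout, and -1.79 ± 0.57, adjusted p = 0.0314 by limma in wild type), where 0.192% of all tested genes were lower in knockout and 1.1% in wild type. With the genotypes averaged 2 of 10 were lower, Nkd1 at -1.94 ± 0.43 (limma adjusted p = 0.00322) and Notum at -1.72 ± 0.62 (limma adjusted p = 0.0412), against 2.35% of genes. The wild type call of Nkd1 rested on replicate 2 of the wild type tumours, the library with the highest share of genes at 0: without it the difference was -1.39, with an adjusted p of 0.0847, and the averaged call of Notum was lost at 0.0632. Without wild type tumour replicate 3, the library with the highest neuronal sum and the lowest endothelial sum of the tumours, Nkd1 was at -2.44 in wild type (limma adjusted p = 0.00293) and the averaged Notum at -1.94 (limma adjusted p = 0.0242). Without replicate 2 the averaged call of Nkd1 was kept (-1.74, limma adjusted p = 0.00464) and Axin2 passed on average (-1.10, limma adjusted p = 0.0484), where it had not with all libraries on that scale (-0.69, limma adjusted p = 0.315).

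Per 100 FPKM of the markers' mean level, which was taken on the log2(FPKM + 1) scale, Nkd1 stood at 29.8 and 46 in knockout tumours, 38, 29.3 and 148 in wild type tumours, 148, 137 and 241 in knockout brains, and 229, 207 and 181 in wild type brains. Wild type tumour replicate 3 reached the brain range, and the other 4 tumour libraries were below it. Lef1 on the same scale stood at 59.6 and 91.5 in knockout tumours, 75.1, 136 and 164 in wild type tumours, 103, 178 and 194 in knockout brains, and 192, 129 and 196 in wild type brains, so its tumours and brains overlapped. No member had every tumour library below every brain library on this scale. Foxq1 and Tspan12 had differences above 0 in wild type, at 0.39 ± 0.49 and 0.33 ± 0.68, and Axin2 was at 0.04 ± 0.69.

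**Figure D3:**
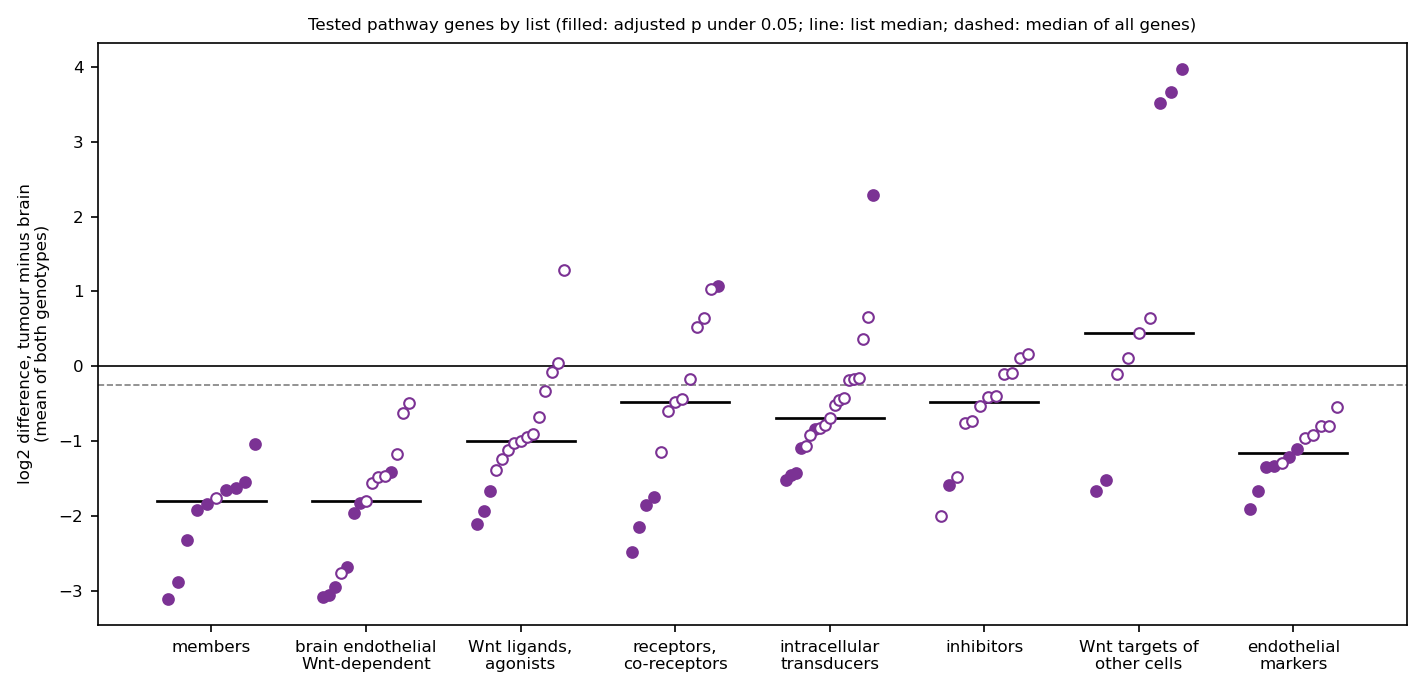
Tumour minus brain difference in log2(FPKM + 1), averaged over genotypes, for each tested gene of the members and of 7 further lists, with a line at each list's median, a dashed line at the median of all genes (-0.25) and filled points for an adjusted p under 0.05. The members and the Wnt-dependent barrier genes have medians of -1.80 each and the endothelial markers one of -1.16, while Ccnd1, Cd44 and Myc are the highest points, between 3.51 and 3.97.

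The rest of the pathway was read from lists of known components, also chosen with earlier results of these data known. The genotypes are averaged unless stated. Of 24 genes for Wnt ligands and their agonists, 15 were tested, and 3 were lower, none higher, where 17.6% of all genes were called lower. With the endothelial markers as the scale, where 35.2% of all genes were called higher and 2.35% lower, 0 were lower and 1 higher (median 0.15). Wnt5a, which mostly signals without beta-catenin (-1.93 ± 0.51, limma adjusted p = 0.0151), Rspo2, a secreted agonist (-2.11 ± 0.56, limma adjusted p = 0.0154), and Wnt2 (-1.66 ± 0.49, limma adjusted p = 0.0247) were the 3. All were low, with at most 19.2 FPKM in any library for Rspo2 and 13.5 for Wnt5a. The ligands of the brain endothelial route did not pass on the deposited scale. Single genes of this list are not given here on the endothelial scale. Wnt7b gave 4.27 and 4.16 FPKM in knockout tumours, 10.8, 30.6 and 1.99 FPKM in wild type tumours, 4.48, 2.49 and 6.44 FPKM in knockout brains, and 0, 0 and 4.12 FPKM in wild type brains (1.29 ± 0.69, limma adjusted p = 0.178). By genotype Wnt7b was at -0.00 ± 1.02 in knockout and 2.59 ± 0.92 in wild type (limma adjusted p = 0.0686), and passed in neither. Wnt7a stayed at or below 1.96 FPKM in every library and Ndp at or below 5.96 FPKM, and neither passed (-0.07 ± 0.42, limma adjusted p = 0.918, and -1.02 ± 0.55, limma adjusted p = 0.186).

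Of 18 receptors and co-receptors other than the members, 13 were tested. By limma 0 passed in knockout, where 4 had an unadjusted p under 0.05. There 2.29% of all genes were called lower and 4.79% higher. In wild type 4 were lower, against 11.7% of all genes. On average 4 were lower and 1 higher, against 17.6% and 12.6% of all genes, with a median of -0.48. On the endothelial scale 0 were lower and 4 higher on average (median 0.67). Over all genes, 35.2% were called higher on that scale, with a median of 0.90. Reck, the partner of Adgra2, gave 2.25 and 13 FPKM in knockout tumours, 8.98, 0 and 0.862 FPKM in wild type tumours, 57.6, 21.5 and 21 FPKM in knockout brains, and 13.1, 22.4 and 16.6 FPKM in wild type brains (-2.48 ± 0.65, limma adjusted p = 0.0146). Its 5 tumour libraries lay at or below 13 FPKM and its brain libraries at or above 13.1 FPKM. Fzd3, Fzd6 and the co-receptor Lrp5 were lower as well, at -1.85 ± 0.47, -2.14 ± 0.54 and -1.74 ± 0.50. Each of these was listed at 0 in wild type tumour replicate 2, like Reck, and no fit without that library is given for them. The co-receptor Lrp6 was higher, at 1.07 ± 0.36 (limma adjusted p = 0.0423), with 38.5 and 33.1 FPKM in knockout tumours, 21.9, 32.9 and 19.3 FPKM in wild type tumours, 14.5, 34.8 and 12.9 FPKM in knockout brains, and 8.08, 14.3 and 7.57 FPKM in wild type brains.

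Of 19 intracellular transducers, all tested, 1 was higher and 5 lower on average, with a median of -0.69. Over all genes, 12.6% were called higher and 17.6% lower. On the endothelial scale 4 were higher and 0 lower (median 0.46), against 35.2% of all genes called higher and a median of 0.90 over all genes. Ctnnb1, which encodes beta-catenin, did not pass (-0.16 ± 0.24, limma adjusted p = 0.629) and gave 281 and 233 FPKM in knockout tumours, 242, 278 and 243 FPKM in wild type tumours, 214, 401 and 215 FPKM in knockout brains, and 411, 299 and 238 FPKM in wild type brains. Tcf7, a TCF factor and a target of the pathway, was the transducer with the smallest p, at -1.52 ± 0.29 (limma adjusted p = 0.00303), and passed in both genotypes. The kinase gene Gsk3a (-1.45 ± 0.28, limma adjusted p = 0.00338) and Dvl1, a dishevelled gene (-1.09 ± 0.30, limma adjusted p = 0.0183), followed. Of 16 secreted and membrane inhibitors other than the members, 12 were tested. Only Dkk3 was lower (-1.59 ± 0.35, limma adjusted p = 0.00675), where 17.6% of all genes were called lower. With the endothelial markers as the scale 0 were lower and 1 higher (median 0.68), where 2.35% of all genes were called lower and 35.2% higher. Frzb and Sfrp5, secreted binders of Wnt proteins, were the next by p and did not pass (limma adjusted p = 0.0571 and 0.08).

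Targets of the pathway known from many tissues gave a mixed picture. Of 11 such genes, 9 were tested. On average 3 were higher and 2 lower, where 12.6% of all genes were called higher and 17.6% lower. With the endothelial markers as the scale 5 were higher and 0 lower, where 35.2% of all genes were called higher. Ccnd1, a cyclin of the entry into the cell cycle, gave 400.5 and 339 FPKM in knockout tumours, 375, 477 and 360.5 FPKM in wild type tumours, 24.8, 18.8 and 32.4 FPKM in knockout brains, and 6.37, 46.6 and 35.9 FPKM in wild type brains (3.97 ± 0.43, limma adjusted p = 8.97e-05). Tcf7 and Tnfrsf19 were lower, and Tnfrsf19 was listed at 0 in wild type tumour replicate 2. Like Ccnd1, Cd44, an adhesion receptor, and Myc were higher, at 3.66 ± 0.48 and 3.51 ± 0.52. Beside them, all 6 proliferation genes were higher in tumour, with sums of 849.7 to 1110 FPKM in knockout tumours, 613 to 1099 FPKM in wild type tumours, 29.7 to 57.3 FPKM in knockout brains, and 12 to 48.7 FPKM in wild type brains. Of the 7 glioma and progenitor markers, which include Cd44, 5 were higher and 1, Prom1, lower, and Olig2 was at 3.74 ± 0.39. Their part in the levels of Ccnd1, Cd44 and Myc was not tested.

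Of 15 barrier genes that depend on Wnt signalling in brain endothelium, all were tested. In knockout tumour 5 were lower (2.29% of all genes), in wild type tumour 8 (11.7%) and on average 7 (17.6%). None was higher, and the averaged median was -1.80. The 8 in wild type include Slc7a5 (-5.02 ± 1.29, limma adjusted p = 0.0206). It gave 0, 84.6 and 0 FPKM in wild type tumours and 89.6 and 77.3 FPKM in knockout tumours. Whether its values at 0 are low levels or failed estimates was not tested. Itm2a, a membrane protein gene, gave 24.1 and 31.6 FPKM in knockout tumours, 22.9, 32.8 and 26.2 FPKM in wild type tumours, 319, 258 and 160.5 FPKM in knockout brains, and 187, 248 and 267 FPKM in wild type brains (-3.05 ± 0.25, limma adjusted p = 1.65e-05). Spock2, a matrix proteoglycan gene, and Slco1c1, a thyroid hormone transporter gene, were at -2.95 ± 0.28 and -2.68 ± 0.27. Cldn5, the main claudin of the barrier's tight junctions, gave 104 and 128 FPKM in knockout tumours, 77.3, 136 and 75.4 FPKM in wild type tumours, 423, 566 and 331 FPKM in knockout brains, and 437, 319 and 393 FPKM in wild type brains (-1.96 ± 0.24, limma adjusted p = 0.000191). Slc2a1, the glucose transporter Glut1, was at -1.41 ± 0.27 (limma adjusted p = 0.00331), and Sox17, an endothelial transcription factor, did not pass (-1.56 ± 0.58, limma adjusted p = 0.0607). With the endothelial markers as the scale, 4 of the 15 were lower on average, where 2.35% of all genes were called lower. The 4 were Itm2a (-1.90 ± 0.30), Spock2 (-1.79 ± 0.40), Slco1c1 (-1.53 ± 0.39) and Abcb1a, an efflux pump gene (-1.93 ± 0.46). On that scale Cldn5 was at -0.80 ± 0.30 (limma adjusted p = 0.0523) and Slc2a1 at -0.26 ± 0.37 (limma adjusted p = 0.617). The part of other cells in the differences of the barrier genes was not tested.

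Plvap, which marks fenestrated endothelium and is repressed as the barrier forms, was the counterpart. It gave 5.03 and 5.72 FPKM in knockout tumours, 0.877, 0 and 1.21 FPKM in wild type tumours, 1.37, 0 and 1.24 FPKM in knockout brains, and was listed at 0 in all 3 wild type brains. It was higher in tumour with the genotypes averaged (1.28 ± 0.39, limma adjusted p = 0.0288) and passed in neither genotype alone (limma adjusted p = 0.0765 in knockout and 0.387 in wild type). With the endothelial markers as the scale it was higher in both, at 2.82 ± 0.71 in knockout (limma adjusted p = 0.0193) and 2.04 ± 0.64 in wild type (limma adjusted p = 0.028). That scale raises the difference of every gene by the same amount, values at 0 FPKM included. The median of all genes there was 0.77 in knockout and 1.09 in wild type. In wild type Plvap reached at most 1.21 FPKM and differed by 0.68 on the deposited scale, so its call there cannot be told apart from this shift. Both knockout tumours lay above every other library, and the genotype difference in tumour did not pass (1.99, unadjusted p = 0.00541 by limma).

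**Figure D4:**
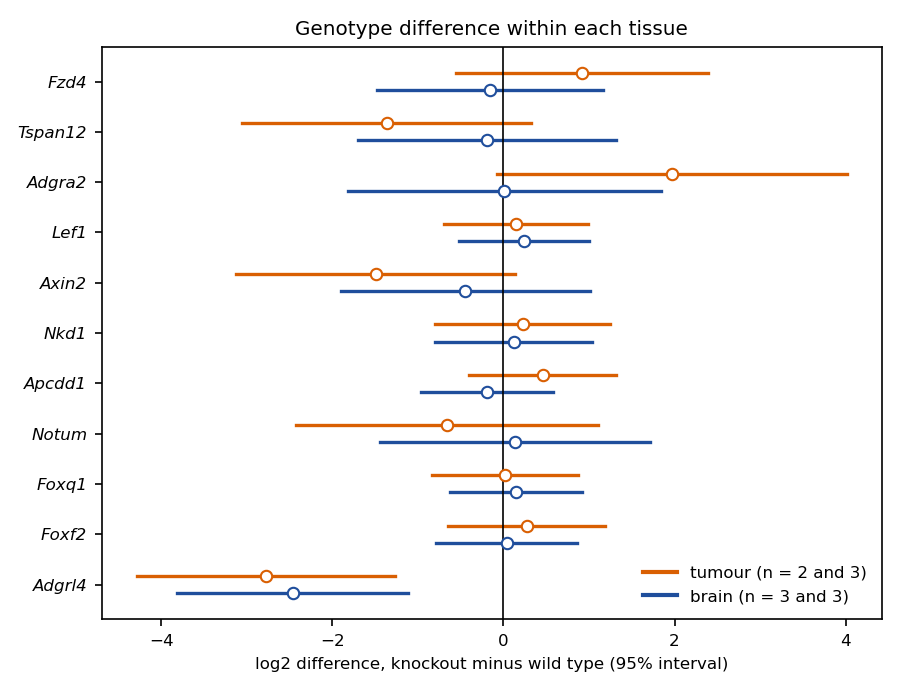
Knockout minus wild type difference in log2(FPKM + 1) with 95% intervals for each member and for Adgrl4, in tumour (n = 2 and 3) above brain (n = 3 and 3). All 20 intervals of the members include 0, and both intervals of Adgrl4 lie below 0, around -2.78 in tumour and -2.46 in brain, although neither passes the adjusted threshold.

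Whether loss of Eltd1 altered the pathway in either tissue was the remaining comparison. No member passed in tumour, where limma called 3 of the 15604 genes (0.0192%) and 485 genes had an unadjusted p under 0.05, none of them a member. No member passed in brain either, where 1 gene was called (0.00641%) and 679 genes, again no member, had an unadjusted p under 0.05. Averaged over tissues the counts were 0 members, 1 gene and 529 genes. The targeted gene itself, at -2.78 ± 0.69 in tumour and -2.46 ± 0.62 in brain, had adjusted p-values of 0.901 and 1, so a change of that size in a gene with that spread did not pass here.

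In tumour the members ran from -1.49 ± 0.74 for Axin2 to 1.97 ± 0.94 for Adgra2. Adgra2 was higher in both knockout tumours (19.6 and 6.65 FPKM) than in any wild type tumour (at most 5.5 FPKM), with an interval of -0.08 to 4.01. Tspan12 was lower in both knockout tumours (6.09 and 12 FPKM) than in any wild type tumour (at least 12.4 FPKM), with an interval of -3.05 to 0.32. These were the only members without overlap between genotypes in tumour, 1 in each direction, as in 10.8% of all genes for higher and 4.61% for lower. Axin2 and Tspan12 both rest on wild type tumour replicate 2 for the size of their difference. The members with the narrowest intervals were Lef1 (-0.70 to 0.99), Foxq1 (-0.84 to 0.87) and Apcdd1 (-0.40 to 1.32).

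In brain every member overlapped between genotypes, where 4.68% of all genes were higher and 3.84% lower without overlap. The differences lay between -0.45 ± 0.67 for Axin2 and 0.24 ± 0.35 for Lef1, with a median of 0.02 for the members and 0.02 for all genes. Lef1 averaged 77.1 ± 12.1 FPKM in knockout brains and 66.4 ± 19.4 FPKM in wild type brains (SD, n = 3 each). Nkd1 averaged 86.1 ± 16.4 FPKM in knockout brains and 78.3 ± 7.2 FPKM in wild type brains, and Apcdd1 averaged 66.5 ± 11.7 FPKM in knockout brains and 75.3 ± 4.88 FPKM in wild type brains (SD, n = 3 each). The intervals for Lef1 (-0.52 to 1.00) and Apcdd1 (-0.96 to 0.58) were among the narrowest in brain, and that of Adgra2 (-1.82 to 1.84) was the widest, with replicate 1 of each genotype at 48.7 and 42.6 FPKM.

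The genes most like the members were sought over the 11 libraries, among 10330 genes with a mean of at least 5 FPKM. Tsc22d1, a transcriptional regulator gene, had the highest Pearson's r with the mean of the members, 0.995. Other genes high in this order were Plcxd2 (0.987), Epas1, which encodes the hypoxia-inducible factor HIF-2 alpha (0.982), Ube2q2 (0.981) and Ldlrad4 (0.980). Tsc22d1 averaged 307 ± 6.75 FPKM in knockout tumours (SD, n = 2), 285 ± 2.58 FPKM in wild type tumours, 1332 ± 178 FPKM in knockout brains and 1405 ± 282 FPKM in wild type brains (SD, n = 3 each). Libraries of 1 tissue share these high values, and after each group's mean was taken out r was 0.56 for Tsc22d1, 0.75 for Epas1, 0.80 for Ube2q2, 0.21 for Ldlrad4 and -0.16 for Plcxd2.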

How the data were processed

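The members and gene lists were chosen with earlier results of these data known. Per the file headers, the authors deposited 1 FPKM value per entry and library. The build GRCm38, Cufflinks 2.2.1 and TopHat2 2.1.1 come from the submitters' processing notes. Their roles, the annotation and the strand setting were not given in the sources used here, and genes that overlap an antisense transcript are therefore uncertain. Replicates are separate mouse samples per the labels' protocols, which speak of 3 per group; 2 knockout tumour libraries were analysed here.

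Entries of 211 repeated symbols, 482 of 46073, were summed, which left 45802 genes. Limma 3.58.1 in R 4.3.3 was fitted to log2(FPKM + 1), without rescaling, over the 15604 genes that reached 1 FPKM in 2 or more libraries: 4 group means over 11 libraries, 7 residual degrees of freedom, eBayes with a variance trend. The scale understates changes of low genes. Each of 7 contrasts was tested on both sides, with Benjamini-Hochberg adjustment over all tested genes and a threshold of 0.05. Errors beside differences are standard errors, and intervals cover 95%. The method was tested on simulated data, with independent normal noise of the same spread per gene in all libraries. That simulation does not cover a library with many values at 0 or a difference in the mix of cells.

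Depth is unknown: at most 2.83% of low genes in a pair of libraries shared a ratio, so no whole reads were recovered and no counting interval is given.

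Named genes were all members, the 3 tested genes of each list with the smallest p in the averaged tissue contrast, a fixed set of pathway and barrier genes, the targeted gene, and the 6 genes most correlated with the members' mean that are not predicted, clone-named or pseudogene symbols, of which 1 is not reported here. Positions and sequences are RefSeq's, for GRCm38.p6. Alternatives were 3 other scalings, the endothelial scale, other pseudocounts and filters, no variance trend, library weights, only the groups compared, leaving out libraries, and keeping only the highest of repeated entries.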

Additional observations from a re-analysis of the deposited data

How the results depend on the processing

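No member passed between genotypes under any setting run, and all member differences between tissues stayed negative on the deposited scale. Counts of members called lower moved. With the endothelial markers as the scale they were 1 in knockout, 1 in wild type and 2 on average, and with wild type tumour replicate 2 left out of that fit 1, 0 and 2 in the same order, or with replicate 3 left out 1, 1 and 2, both chosen after seeing the data. With only the groups compared they were 5 in knockout and 3 in wild type, without wild type tumour replicates 2 and 3 they were 7 in knockout and 3 in wild type, and with weights per library 9 in knockout. Leaving out 1 library at a time gave 0 to 7 in knockout, 5 to 7 in wild type and 7 to 9 on average. On the endothelial scale the tumour minus brain difference reversed for Adgra2 (0.17) in knockout, Axin2 (0.04), Tspan12 (0.33) and Foxq1 (0.39) in wild type, and Foxq1 (0.12) on average. There the knockout minus wild type difference reversed in tumour for Lef1 (-0.65), Nkd1 (-0.57), Apcdd1 (-0.33), Foxq1 (-0.78) and Foxf2 (-0.52), and in brain for Lef1 (-0.14), Nkd1 (-0.26), Notum (-0.24), Adgra2 (-0.37), Foxq1 (-0.23) and Foxf2 (-0.35), while the median of all genes moved to -0.63 in tumour and -0.36 in brain. Scaling by the upper quartile moved the median tumour minus brain difference of all genes to -0.05 in knockout and -0.10 in wild type and reversed no member. Quantile normalization, which moved it to -0.08 in knockout and 0.01 in wild type, and the genotype median in tumour to -0.03, reversed Nkd1 (-0.14) and Foxq1 (-0.02) in tumour and Notum (-0.03) in brain between genotypes. Weights per library reversed Foxf2 (-0.19) in tumour, and Notum (-0.07) and Foxf2 (-0.06) in brain, and Foxf2 in tumour was -0.31 without wild type tumour replicates 2 and 3. With 1 library left out, the genotype difference in tumour ran from -0.11 to 0.64 for Nkd1, -0.25 to 0.29 for Foxq1 and -0.10 to 0.56 for Foxf2, and in brain from -0.50 to 0.60 for Notum, -0.32 to 0.09 for Fzd4, -0.77 to 0.16 for Tspan12, -0.59 to 0.52 for Adgra2, -0.05 to 0.32 for Foxq1 and -0.18 to 0.15 for Foxf2. None of these genotype differences passed, and the cause was not tested. Genes called over the settings ranged from 147 to 4126 in knockout, 614 to 4937 in wild type and 2574 to 7016 on average between tissues, and from 0 to 62 between genotypes in tumour and 0 to 4 in brain. With weights per library Adgrl4 passed in tumour (-2.34, limma adjusted p = 0.0268). No paired analysis was possible because the labels number the libraries 1 to 11 and share no replicate number between groups. Depth is unknown, so what it limits cannot be given. The 3 members at 0 in wild type tumour replicate 2 entered the fits as 0, as did Notum in both knockout tumours. Whether these are low levels or failed estimates was not tested.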
